A study of Mus musculus with 8 samples.

Results

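Interferon-stimulated genes are the antiviral, antigen-processing and signalling genes that cells switch on after interferon binds its receptor. Of 35 listed genes, 30 were found on the arrays under their current symbol, 3 more (Irf9, Dhx58 and Gbp3) were matched through the RefSeq accession printed beside an older symbol, and Xaf1 and Dtx3l were not matched. Counts below are over the 30 genes found by symbol, among 22832 genes tested, and values of the other 3 are given apart. Each gene was read from the brightest of its probes in the co-culture channel. RNA came from MC3T3-E1, a mouse calvarial pre-osteoblast line, grown together with tumour cells in 4 groups of 2 biological replicates. The groups were co-cultures with Jagged1-overexpressing tumour cells given MRK-003 (Jagged1 MRK-003), with vector control tumour cells given MRK-003 (vector MRK-003), with Jagged1-overexpressing tumour cells given DMSO (Jagged1 DMSO) and with vector control tumour cells given DMSO (vector DMSO). Jagged1 is a ligand of the Notch receptors, MRK-003 is a gamma-secretase inhibitor that blocks the cleavage by which Notch receptors signal, and DMSO is its solvent. All 4 groups therefore contained tumour cells. The sources used here give neither the tumour line nor its species, nor whether the cell types were separated before RNA was taken. Each array compared co-culture RNA, labelled Cy3, with Universal Mouse Reference RNA, labelled Cy5, and values are log2 ratios of Cy3 over Cy5. A value of 0 means equal signal to the reference RNA, so differences are read between groups of 1 probe and not between probes.

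Type I interferons bind the receptor chains Ifnar1 and Ifnar2 and activate the kinases Jak1 and Tyk2. The complex ISGF3, which contains Stat2 and Irf9, then binds the interferon-stimulated response element (ISRE) in promoters, whereas interferon gamma acts at the gamma-activated site (GAS). In osteoblast and osteoclast biology, interferon signalling is known chiefly as a restraint on osteoclast formation, and osteoblast-lineage cells can themselves make and answer interferon.

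The promoters of 4 of the genes described most below, and of Irf1 for contrast, are printed to show where these elements lie. Each run is the 170 bases before the RefSeq start site on the gene's own strand (GRCm38.p6, sequence from RefSeq), with matches to the ISRE core in capitals in the first 4 runs and a match to the GAS in capitals in the last.
Ifit1 (chr19:34640719-34640888, plus strand): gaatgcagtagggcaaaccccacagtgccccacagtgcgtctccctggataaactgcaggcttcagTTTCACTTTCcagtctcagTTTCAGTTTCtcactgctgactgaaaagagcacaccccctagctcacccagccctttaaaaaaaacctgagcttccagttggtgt
Ifit3 (chr19:34583359-34583528, plus strand): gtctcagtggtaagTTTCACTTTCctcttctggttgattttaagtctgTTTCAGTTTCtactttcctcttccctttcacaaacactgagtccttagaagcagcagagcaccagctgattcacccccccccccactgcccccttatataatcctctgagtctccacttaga
Bst2 (chr8:71537473-71537642, minus strand): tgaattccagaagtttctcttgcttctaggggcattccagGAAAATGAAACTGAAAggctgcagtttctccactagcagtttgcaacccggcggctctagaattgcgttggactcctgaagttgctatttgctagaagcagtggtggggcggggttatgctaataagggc
Isg15 (chr4:156200819-156200988, minus strand): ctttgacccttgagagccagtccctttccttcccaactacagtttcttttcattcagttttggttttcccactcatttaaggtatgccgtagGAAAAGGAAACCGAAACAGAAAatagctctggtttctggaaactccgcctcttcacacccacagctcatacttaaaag
Irf1 (chr11:53769844-53770013, plus strand): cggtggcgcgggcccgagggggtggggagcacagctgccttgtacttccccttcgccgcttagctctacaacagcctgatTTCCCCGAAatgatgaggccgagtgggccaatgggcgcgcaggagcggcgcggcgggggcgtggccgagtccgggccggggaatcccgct

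The ISRE core was searched as GAAA, any 2 bases and GAAA, and the GAS as TTC, any 3 bases and GAA, on both strands of windows from 250 bases before to 50 bases after the start. RefSeq windows were at hand for 27 of the 35 genes (31 windows) and not for Dhx58, Mx1, Mx2, Oas2, Parp14, Parp9, Usp18 and Zbp1. The ISRE core was present in 14 of the 31 windows, against 3.44% of all 32851 mouse windows. GAS matches were present in 7 of the 31 windows, against 8.30% of all windows. In Ifit1 the 2 ISRE matches began 104 and 85 bases before the start, and in Ifit3 they began 156 and 122 bases before it. Bst2 had overlapping ISRE matches 130 and 124 bases before its start, and a GAS match at 136 bases ran into the first of them. Isg15 had 3 overlapping ISRE matches, at 78, 72 and 66 bases before the start. By gene, 14 of the 27 had an ISRE core in these windows. Irf1, Ifi44, Ifit2, Oasl2 and Samd9l were among those without one, and Irf1 had a GAS match 90 bases before its start.

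The median Cy3 signal per array, before background subtraction, lay between 76.5 and 204. Replicate 2 of each group, hybridised on the second slide, was dimmer than replicate 1. Between 71.4% and 89.4% of probes had Cy3 well above background. Of the 30 genes, 28 were well above background on all 8 arrays, Rsad2 on 7 and Mx1 on 5. The Notch targets followed the group labels: Hey1, a direct Notch target, was 3.90 higher in log2 in Jagged1 DMSO than in vector DMSO (limma, adjusted p = 0.00951) and fell by 5.98 with MRK-003 in Jagged1 co-cultures (adjusted p = 0.000788). Of 8 Notch genes checked, 6 fell with MRK-003 in Jagged1 co-cultures. The osteoblast markers Col1a1, Col1a2, Sparc and Spp1 were among the brightest probes, and 13 of 14 osteoblast markers were above background on all 8 arrays.

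Ifit1 rose with MRK-003 in co-cultures with Jagged1-overexpressing cells, and most of the other interferon-stimulated genes had positive differences. Of the 30 genes, 23 had a positive difference between Jagged1 MRK-003 and Jagged1 DMSO, against 51.1% of all genes, and their median difference was 0.39 log2 units, against 0.0063 over all genes. Ifit1 alone passed an adjusted p of 0.05 (1 of 30, with 1.20% of all genes called), and with the replicate number as a block, which is also the slide, 9 of 30 passed, all higher, with 4.45% of all genes called (2.38% higher and 2.07% lower). For 15 of the 30 genes both Jagged1 MRK-003 arrays lay above both Jagged1 DMSO arrays and for 2 below them, against 23.3% and 21.6% of all genes. The 9 genes that passed with the block were Ifit1, Ifit2, Ifit3, Oas2, Usp18, Mx2, Bst2, Ifi44 and Cxcl10. In bulk RNA such as this, fewer cells of a type and less RNA per cell cannot be told apart.

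The tetratricopeptide proteins of the Ifit family, which bind viral RNA and block its translation, had the highest median difference of the roles listed. Ifit1, which recognises RNA without a 2'-O-methylated cap, had log2 ratios of 0.37 and 0.84 in Jagged1 MRK-003, 0.40 and 0.66 in vector MRK-003, -0.99 and -1.21 in Jagged1 DMSO, and 0.02 and -0.47 in vector DMSO. All 4 MRK-003 arrays lay above all 4 DMSO arrays, and both Jagged1 DMSO arrays lay below both vector DMSO arrays. The difference between Jagged1 MRK-003 and Jagged1 DMSO was 1.71 ± 0.24 (SE), a 3.27-fold higher level (95% interval 1.13 to 2.28 in log2, adjusted p = 0.0323), with 1.36 on slide 1 and 2.05 on slide 2. Its probe lies at chr19:34350610-34350669 on mm7. When each array was left out in turn, Ifit1 kept an adjusted p under 0.05 in 2 of 8 cases, those without either vector DMSO array, with differences from 1.47 to 1.95.

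Ifit3, a partner of Ifit1 in 1 complex in human cells, had log2 ratios of -0.96 and -0.83 in Jagged1 MRK-003, -1.10 and -0.69 in vector MRK-003, -2.03 and -1.99 in Jagged1 DMSO, and -1.48 and -1.20 in vector DMSO. Its 2 lowest values were the Jagged1 DMSO arrays, well below the other 6. The difference with MRK-003 in Jagged1 co-cultures was 1.12 ± 0.19 and missed the threshold (adjusted p = 0.0511), and it passed with the block (adjusted p = 0.0131). Ifit2, which promotes apoptosis in some cells, differed by 0.99 (adjusted p = 0.280, and 0.0237 with the block), with log2 ratios of 0.12 and 0.51 in Jagged1 MRK-003 and -1.07 and -0.29 in Jagged1 DMSO. Second probes of Ifit2 and Ifit3 gave differences of 0.62 and 1.41, in the same direction. The Ifit3 probe lies at chr19:34289919-34289978 and the Ifit2 probe at chr19:34277058-34277117, both on mm7, so the 3 genes are neighbours.

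**Figure D1:**
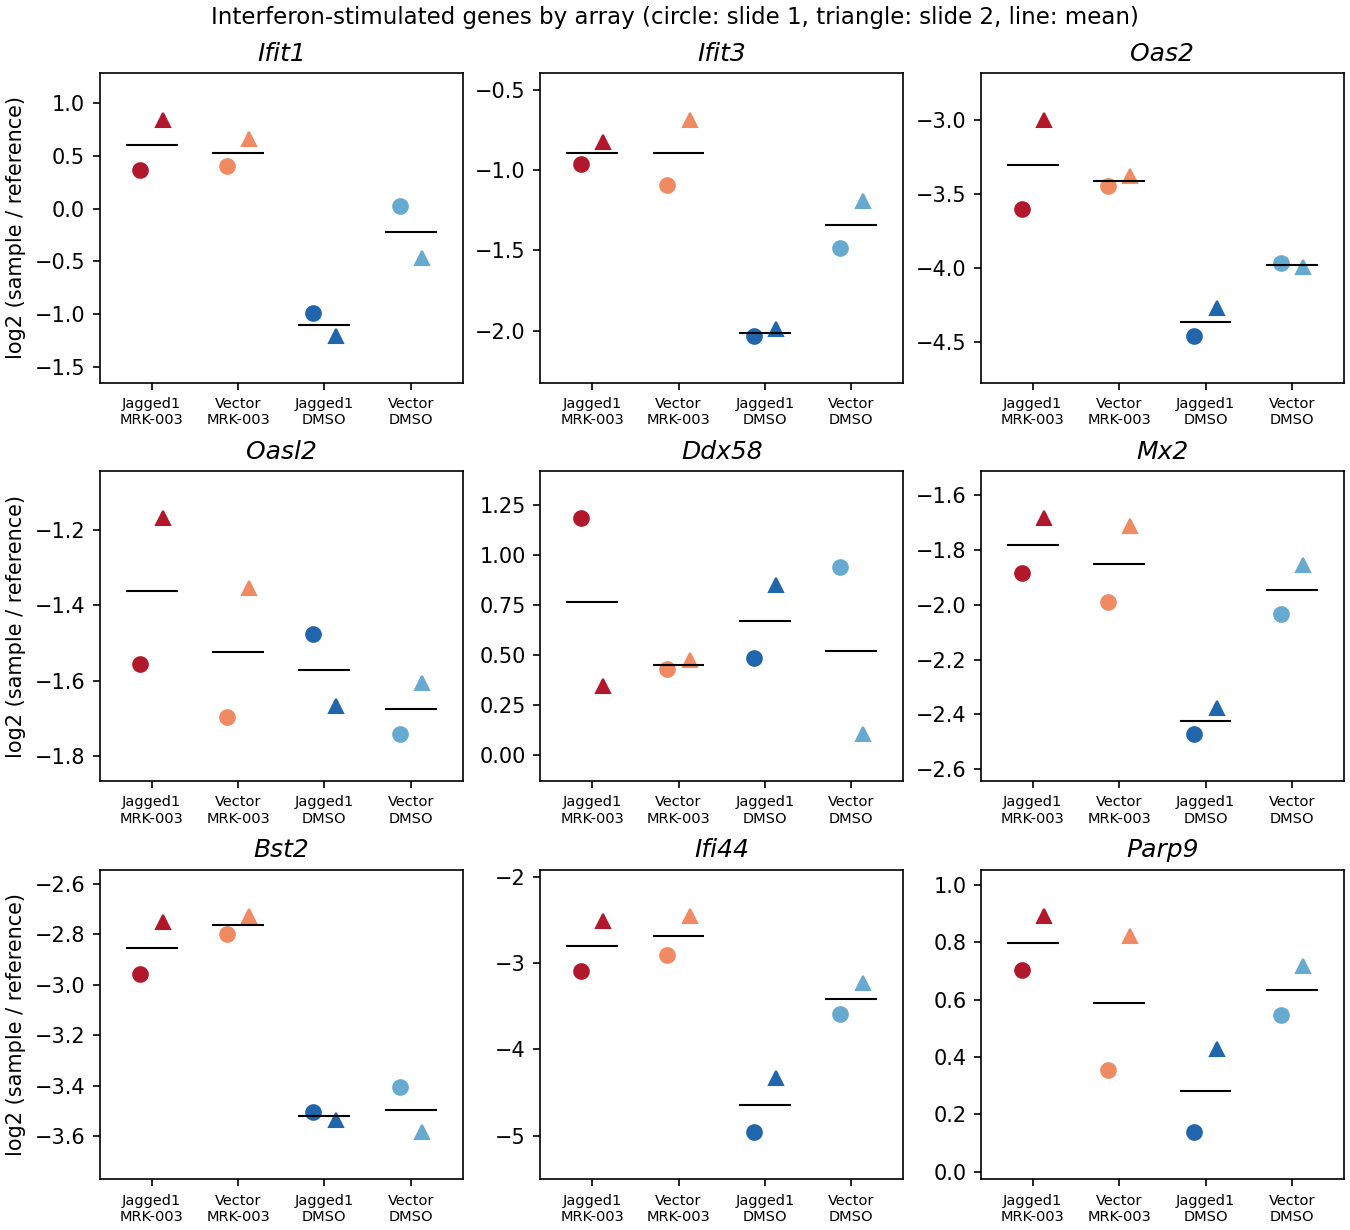
Log2 ratio of co-culture RNA (Cy3) over reference RNA (Cy5) on each array for 9 genes, with circles for slide 1, triangles for slide 2 and a line for the mean of each group (n = 2). Ifit1, Ifit3, Oas2, Bst2 and Ifi44 have all 4 MRK-003 arrays above all 4 DMSO arrays, whereas Ddx58 and Oasl2 overlap between groups.

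Among the other antiviral effectors, Ifi44, an interferon-induced cytoplasmic protein, showed a larger difference with more spread. Its log2 ratios were -3.09 and -2.52 in Jagged1 MRK-003, -2.91 and -2.45 in vector MRK-003, -4.96 and -4.33 in Jagged1 DMSO, and -3.59 and -3.23 in vector DMSO. As for Ifit1, the Jagged1 DMSO arrays were lowest and the MRK-003 and DMSO arrays did not overlap. Jagged1 MRK-003 exceeded Jagged1 DMSO by 1.84 ± 0.31, or 3.58-fold (adjusted p = 0.0516, and 0.0036 with the block), with 1.87 and 1.81 on the 2 slides. A second, dimmer Ifi44 probe, above background on 4 arrays, gave 0.72. Bst2 (tetherin), which holds budding virus at the cell surface, had log2 ratios of -2.96 and -2.75 in Jagged1 MRK-003, -2.80 and -2.73 in vector MRK-003, -3.51 and -3.54 in Jagged1 DMSO, and -3.41 and -3.59 in vector DMSO. Unlike those of Ifit1 and Ifi44, the Bst2 values of the 2 DMSO groups were interleaved. Its difference in Jagged1 co-cultures was 0.67 ± 0.14 (adjusted p = 0.101, and 0.0495 with the block). Rsad2 (viperin), which makes a chain-terminating nucleotide, had a difference of -0.35 (adjusted p = 0.862), with overlapping groups, and its 2 other probes gave 0.13 and 0.29, the opposite sign.

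Oas2 makes the 2'-5' oligoadenylates that activate RNase L, and it had log2 ratios of -3.60 and -2.999 in Jagged1 MRK-003, -3.44 and -3.38 in vector MRK-003, -4.46 and -4.27 in Jagged1 DMSO, and -3.96 and -3.99 in vector DMSO. All MRK-003 arrays were again above all DMSO arrays. The difference in Jagged1 co-cultures was 1.06 ± 0.21 (adjusted p = 0.0828, and 0.0309 with the block), while a second Oas2 probe near background, above it on 6 arrays, gave -0.27. Oasl1, Oasl2 and Oas1a, the other family members, had differences of 0.07, 0.21 and 0.28, none of which passed in either fit.

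Mx2, a dynamin-like antiviral GTPase, had log2 ratios of -1.88 and -1.68 in Jagged1 MRK-003, -1.99 and -1.71 in vector MRK-003, -2.47 and -2.38 in Jagged1 DMSO, and -2.04 and -1.86 in vector DMSO. Only the Jagged1 DMSO arrays stood apart from the rest, below all 6 others. The difference in Jagged1 co-cultures was 0.64 ± 0.16 (adjusted p = 0.150, and 0.0334 with the block). The other GTPases Mx1, Gbp2 and Igtp had differences of 0.57, 0.16 and 0.48 that passed in neither fit, and Gbp3, matched by accession, had 0.46. Mx1 was not well above background on 3 arrays, all of them on slide 2. A second, dimmer Mx1 probe, above background on 4 arrays, gave -1.02, the opposite sign.

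In the ISG15 system, Usp18, the protease that removes Isg15 from proteins and dampens the receptor, differed by 0.60 ± 0.15 in Jagged1 co-cultures (adjusted p = 0.156, and 0.0389 with the block). The difference of Isg15 itself, the ubiquitin-like modifier, was 0.47 (adjusted p = 0.585, and 0.0796 with the block), and that of Trim25, a ubiquitin ligase acting on the RNA sensor RIG-I, was -0.05. The array annotation places the Isg15 probe on chromosome 17 of mm7, whereas the RefSeq promoter of Isg15 is on chromosome 4. Cxcl10, a chemokine that draws activated T cells, differed by 0.57 (adjusted p = 0.653, and 0.0453 with the block), with log2 ratios of -2.64 and -3.39 in Jagged1 MRK-003 and -3.28 and -3.88 in Jagged1 DMSO. On each slide Cxcl10 was higher in Jagged1 MRK-003, although the 2 groups overlapped between slides.

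None of the nucleic acid sensors passed, apart from Dhx58 in the fit with the block. Ddx58 (RIG-I), which detects RNA with a 5' triphosphate, had log2 ratios of 1.19 and 0.34 in Jagged1 MRK-003, 0.43 and 0.48 in vector MRK-003, 0.48 and 0.85 in Jagged1 DMSO, and 0.94 and 0.10 in vector DMSO. For this probe the groups overlapped throughout, and the difference in Jagged1 co-cultures was 0.70 on slide 1 and -0.51 on slide 2. Its mean was 0.10, and dimmer Ddx58 probes gave 0.27 and 0.25 (above background on 8 arrays) and 0.41 (on 4 arrays). Between Jagged1 DMSO and vector DMSO those probes gave -0.31, -0.43 and -0.51, opposite in sign to the 0.15 of the probe used. Ifih1 (MDA5), a sensor of long double-stranded RNA, and Eif2ak2 (PKR), a kinase that halts translation, differed by 0.36 and 0.42, with neither passing. Zbp1, a sensor of Z-form nucleic acid, differed by 0.12. Dhx58 (LGP2), matched by accession, differed by 1.07 ± 0.25 (adjusted p = 0.127, and 0.0142 with the block), and its second probe gave 0.49.

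The transcription factors found by symbol and the peptide transporter had differences below 0, and none passed in either fit. Irf1, a transcription factor whose promoter holds the GAS match printed above, had log2 ratios of 0.10 and 0.24 in Jagged1 MRK-003 and 0.38 and 0.76 in Jagged1 DMSO, a difference of -0.40 ± 0.19 (adjusted p = 0.488). The 2 groups did not overlap, and a second Irf1 probe gave -0.61. Tap1, which carries peptides to class I molecules, differed by -0.88 ± 0.44 (adjusted p = 0.511), with -0.35 on slide 1 and -1.42 on slide 2. Irf7, the amplifier of type I interferon production, and Stat2 differed by -0.03 and -0.41 (adjusted p = 0.984 and 0.862), and Irf9, matched by accession, by 0.39 (adjusted p = 0.412). A second, dimmer Irf9 probe, above background on 8 arrays, gave -0.15, the opposite sign. Stat2 read 0.28 on slide 1 and -1.09 on slide 2. By role, the medians in Jagged1 co-cultures were 1.12 for the 3 Ifit genes, 0.53 for the 4 GTPases, 0.47 for the 3 genes of the ISG15 system, 0.45 for 7 other antiviral effectors, 0.24 for the 4 oligoadenylate synthetase family genes, 0.24 for the 4 sensors and kinase, -0.16 for Tap1 and Cxcl10, and -0.40 for the 3 transcription factors.

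**Figure D2:**
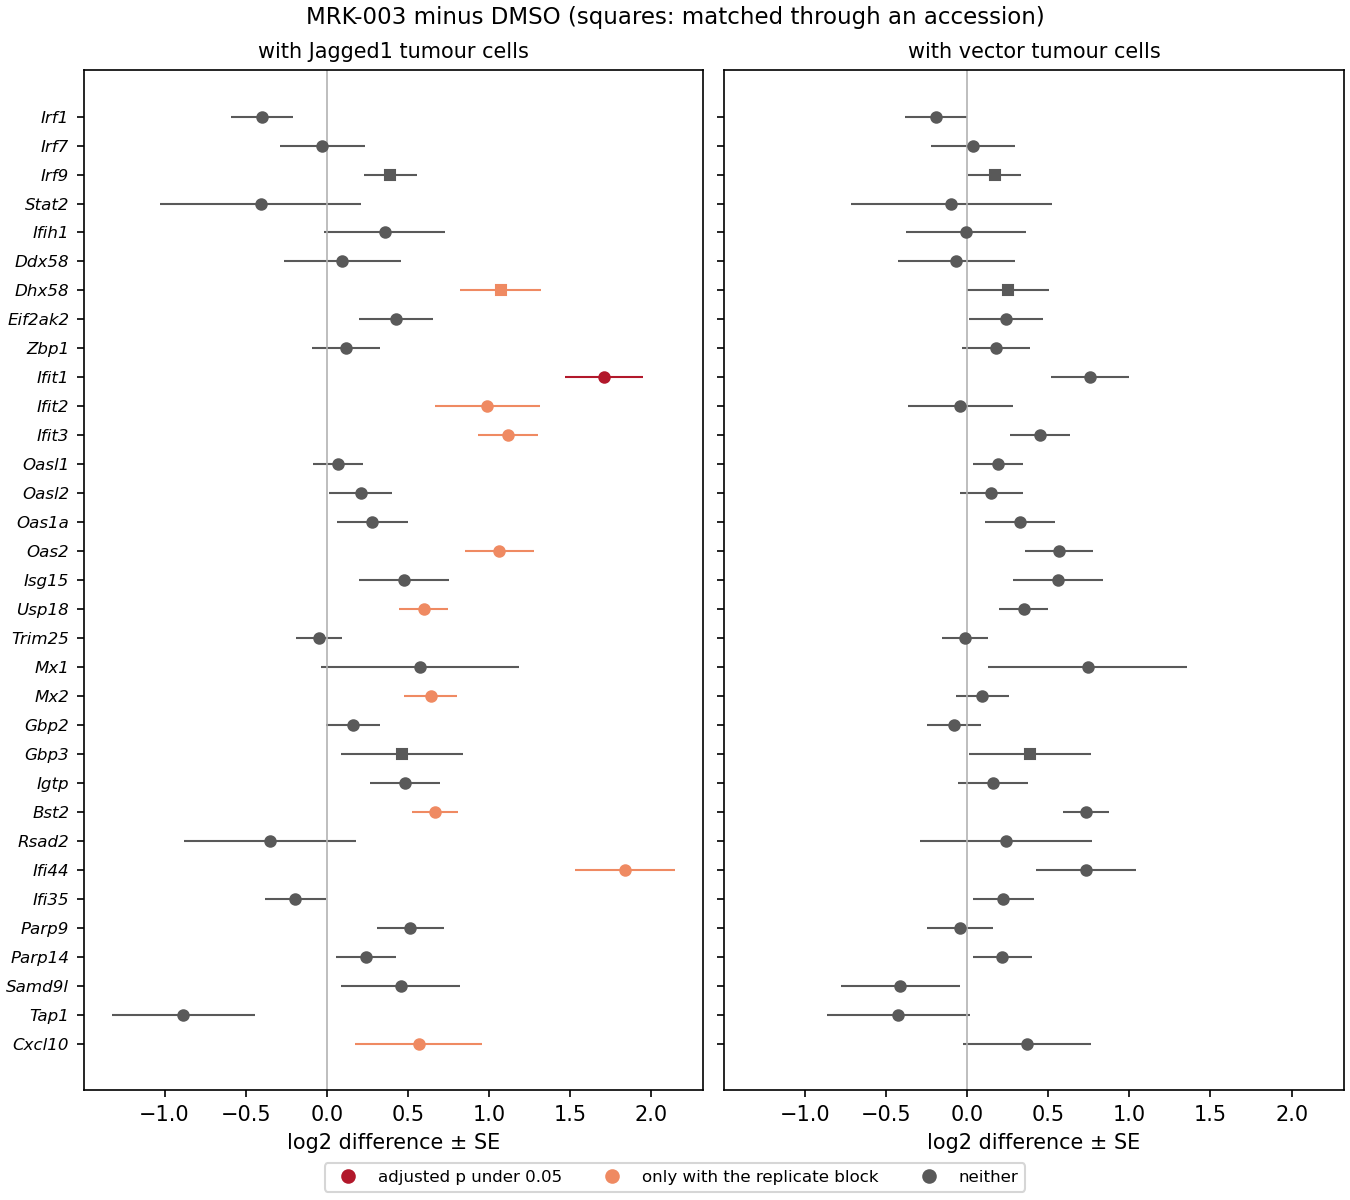
Difference between MRK-003 and DMSO (log2, point and SE bar) for 33 genes in co-cultures with Jagged1-overexpressing cells (left) and with vector control cells (right), ordered by role. Red marks an adjusted p under 0.05, orange one that passed only with the replicate block and squares the genes matched by accession. Ifit1 is the red point (1.71), the orange points lie in the left panel, and no gene passed in the right one.

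In co-cultures with vector control cells the same genes were read from 4 other arrays. Of the 30 genes, 20 had a positive difference between vector MRK-003 and vector DMSO, against 54.3% of all genes, with a median of 0.18, against 0.023 over all genes. None passed (0 of 30, with 0% of all genes called by limma in either fit). At an unadjusted p under 0.05 there were 4 of the 30 genes and 866 of all 22832 genes. Those 4 were Bst2, with a difference of 0.73 ± 0.14 (unadjusted p = 0.00154), Ifit1 with 0.76 ± 0.24 (0.0173), Oas2 with 0.57 ± 0.21 (0.0328) and Ifit3 with 0.45 ± 0.19 (0.0483), and the adjusted p of each was 0.999. For these 4 genes both vector MRK-003 arrays lay above both vector DMSO arrays, as the per-array values above show. Across the list, 9 genes had such a split upwards and 0 downwards, against 14.8% and 11.7% of all genes. Ifi44 differed by 0.73 and Isg15 by 0.56, while Ifit2 (-0.04), Samd9l (-0.41) and Tap1 (-0.42) had negative differences.

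A positive difference in both kinds of co-culture, which share no arrays, was seen for 17 of 30 genes (56.7%) and for 32.5% of all genes. Averaged over both, Ifit1 and Bst2 rose with MRK-003. The average difference of Ifit1 was 1.23 ± 0.17, or 2.35-fold (adjusted p = 0.0335), and that of Bst2 was 0.70 ± 0.10, or 1.62-fold (adjusted p = 0.0364), so 2 of 30 genes passed with 1.06% of all genes called. Both were higher on each slide, Ifit1 by 0.87 and 1.59 and Bst2 by 0.58 and 0.82. With the block, 8 of 30 genes passed, all higher, with 4.03% of all genes called (1.90% higher and 2.14% lower): Ifit1, Bst2, Ifit3, Ifi44, Oas2, Usp18, Isg15 and Cxcl10. For 6 genes (Ifit1, Ifit3, Oas2, Usp18, Bst2 and Ifi44) all 4 MRK-003 arrays lay above all 4 DMSO arrays, and for 0 genes below, against 4.26% and 4.89% of all genes. Neither Ifit1 nor Bst2 kept an adjusted p under 0.05 when any 1 of the 8 arrays was left out, with average differences from 1.11 to 1.36 and from 0.65 to 0.75.

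**Figure D3:**
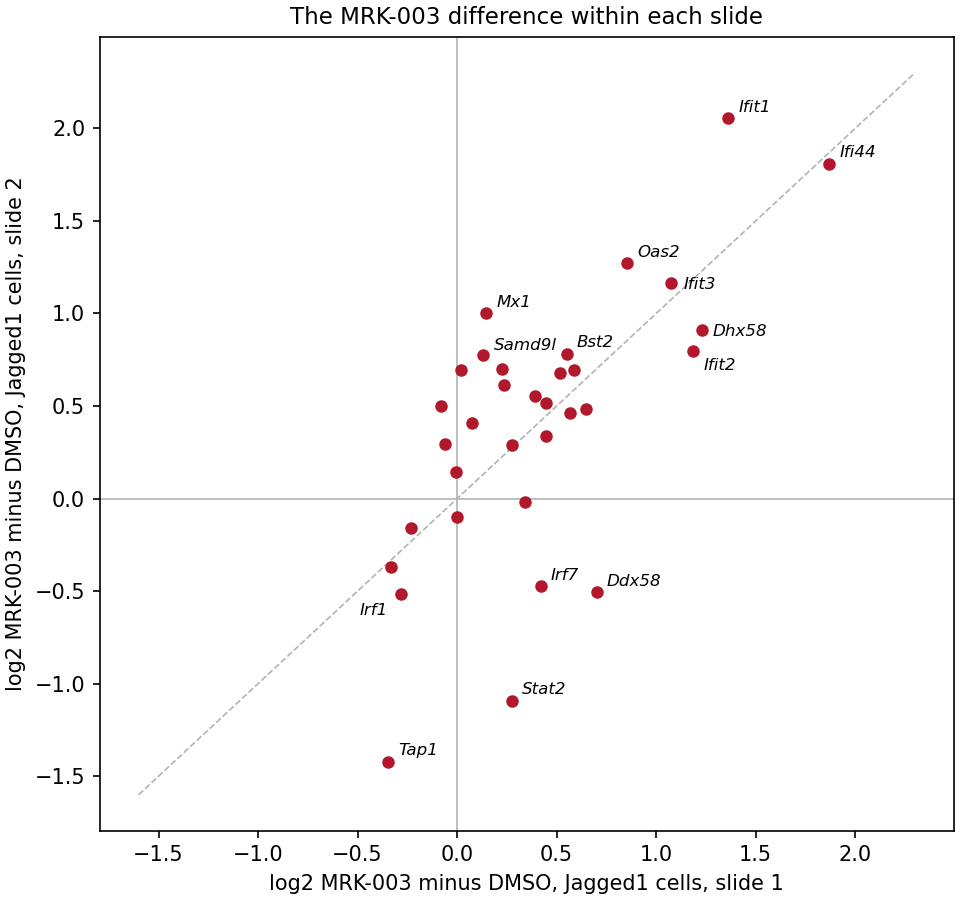
Difference between Jagged1 MRK-003 and Jagged1 DMSO (log2) on slide 1 (horizontal) and slide 2 (vertical), 1 array per group on each, for 33 genes. Ifit1 (1.36 and 2.05), Ifi44 (1.87 and 1.81) and Ifit3 (1.07 and 1.16) lie far out on both axes, whereas Stat2 and Ddx58 change sign between slides.

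Without the inhibitor, Ifi44 was lower with Jagged1-overexpressing cells in the fit with the block, and Ifit1, Ifit3 and Mx2 had lower means that did not pass. In Jagged1 DMSO against vector DMSO, 13 of 30 genes had a positive and 17 a negative difference, with 51.7% of all genes positive, and the median was -0.06, against 0.011 over all genes. None passed (0 of 30, with 0.0701% of all genes called by limma, 0.0482% higher and 0.0219% lower). At an unadjusted p under 0.05 there were 6 of the 30 genes and 1720 of all 22832 genes. Ifi44 differed by -1.23 ± 0.31, a 2.35-fold lower mean (adjusted p = 0.357), with -1.37 and -1.10 on the 2 slides, and it passed with the block (adjusted p = 0.0212), as 1 of 30 genes, with 1.13% of all genes called (0.591% lower). Ifit1 differed by -0.88 ± 0.24 (adjusted p = 0.416, and 0.171 with the block), Ifit3 by -0.67 ± 0.19 (0.417 and 0.0889) and Mx2 by -0.48 ± 0.16 (0.543 and 0.117). With normexp background correction, described below, Ifi44 and Mx2 turned to 0.50 and 0.49, and Ifit1 and Ifit3 differed by -0.33 and -0.037. For each of these 4 genes, in the processed signals, both Jagged1 DMSO arrays lay below both vector DMSO arrays. The same was true of 12 of the 30 genes, and 3 lay wholly above, against 20.5% and 21.9% of all genes. Samd9l, a restraint on cell growth, and Ifit2 differed by -1.04 and -0.92 without passing in either fit, while Stat2, Tap1, Ifi35 and Irf1 had differences of 0.56, 0.38, 0.31 and 0.28. This comparison and that of MRK-003 in Jagged1 co-cultures share the 2 Jagged1 DMSO arrays, so low values there enter both.

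With MRK-003 present, no gene of the list differed detectably between Jagged1 and vector co-cultures. The 30 genes had 14 positive and 16 negative differences between Jagged1 MRK-003 and vector MRK-003, with 49.0% of all genes positive, a median of -0.0028 and a range from -0.19 to 0.31, and 0 passed, with 0% of all genes called by limma in either fit. No gene of the 30 had an unadjusted p under 0.05, against 138 of all 22832 genes. For 0 of the 30 did the 2 groups' arrays separate, against 7.70% of all genes upwards and 7.58% downwards. The 4 smallest unadjusted p belonged to Parp9, Ddx58, Oasl2 and Bst2. Parp9, which with Dtx3l modifies proteins at sites of damage and in interferon signalling, had log2 ratios of 0.70 and 0.89 in Jagged1 MRK-003, 0.36 and 0.82 in vector MRK-003, 0.14 and 0.43 in Jagged1 DMSO, and 0.55 and 0.72 in vector DMSO. Its groups overlapped under MRK-003, and the difference was 0.21 ± 0.20 (unadjusted p = 0.340). Oasl2, an oligoadenylate synthetase-like protein with ubiquitin-like domains, had -1.56 and -1.17 in Jagged1 MRK-003, -1.69 and -1.35 in vector MRK-003, -1.48 and -1.67 in Jagged1 DMSO, and -1.74 and -1.61 in vector DMSO, all close together. The differences of Ddx58, Oasl2 and Bst2 were 0.31 ± 0.36, 0.16 ± 0.20 and -0.09 ± 0.14. The intervals leave room for differences: that of Ifit1 was -0.50 to 0.65 around 0.07, and that of Ifi44 -0.86 to 0.61 around -0.12.

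**Figure D4:**
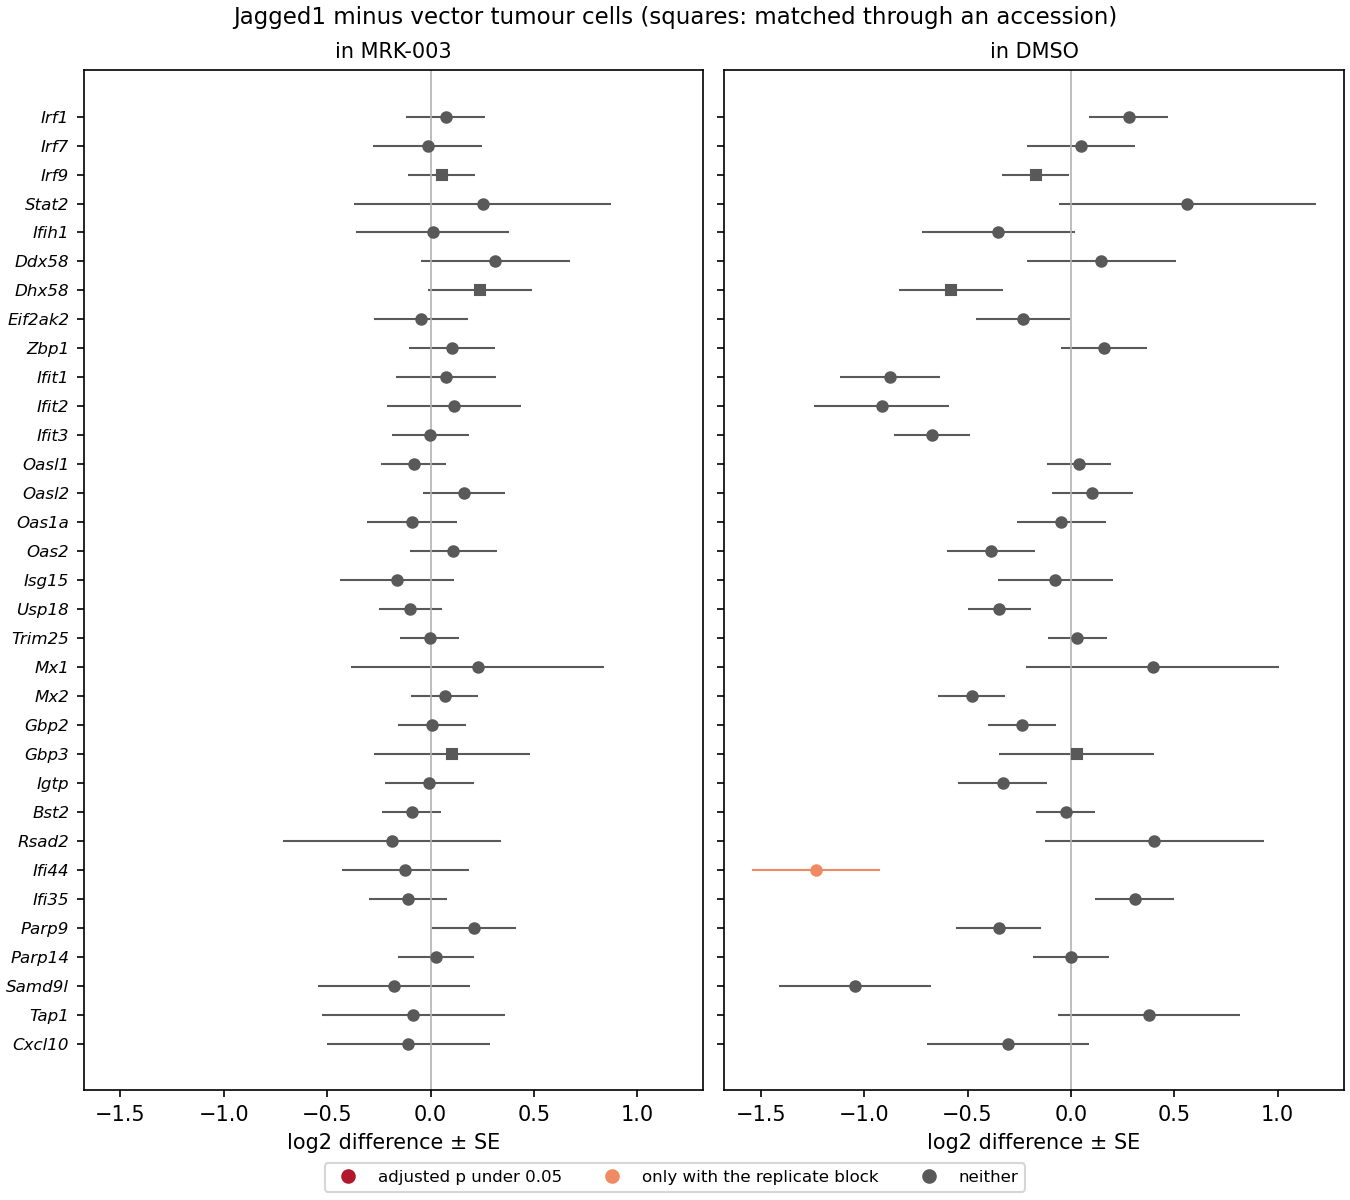
Difference between Jagged1-overexpressing and vector control tumour cells (log2, point and SE bar) for 33 genes in MRK-003 (left) and in DMSO (right), in the order and colours of the plot of MRK-003 differences. In MRK-003 the points of the 30 genes found by symbol span -0.19 to 0.31, and in DMSO Ifi44 (-1.23), Samd9l (-1.04), Ifit2 (-0.92) and Ifit1 (-0.88) lie lowest.

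Whether the Jagged1 effect differed between MRK-003 and DMSO was tested as an interaction, and 0 of 30 genes passed, with 0% of all genes called by limma (0.00876% with the block, none of them in the list). At an unadjusted p under 0.05 there were 3 of the 30 genes and 874 of all 22832 genes. These were Ifit1 with an interaction of 0.95 ± 0.34 (unadjusted p = 0.0283), Ifi44 with 1.11 ± 0.44 (0.0397) and Ifit3 with 0.67 ± 0.26 (0.0399), followed by Mx2 with 0.55 ± 0.23 (0.0501), each with an adjusted p of 0.983. The values were 0.98 and 0.92 on the 2 slides for Ifit1 and 1.18 and 1.04 for Ifi44. With normexp they were 0.23 for Ifit1 and 0.14 for Ifit3, and turned to -0.094 for Ifi44 and -0.11 for Mx2. Bst2 had an interaction of -0.07 ± 0.20. Over the list 17 of 30 interactions were positive, against 48.5% of all genes. A larger response to MRK-003 with Jagged1 cells than with vector cells was therefore not shown for any of these genes after correction over all genes.

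As a description of how the list varied within itself, each gene was centred on its slide and set against Ifit1 over the 8 arrays, which share 4 groups and 2 slides. The genes most like Ifit1 were Oas2 (r = 0.97), Usp18 (0.97), Ifi44 (0.96), Ifit3 (0.95), Igtp (0.94) and Mx2 (0.94). Of the 29 other genes, 13 had a correlation above 0.8, 8 lay from 0 to 0.8 and 8 below 0. The matching counts over all genes were not computed, so these do not set the list apart from other genes. The lowest were Irf1 (-0.91), Tap1 (-0.88) and Trim25 (-0.73).

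Few genes of the steps upstream of this list passed. Of 7 interferon ligands listed, 6 were measured and none passed in Jagged1 co-cultures. Ifnb1, the first type I interferon that most cells make, differed by 0.58 (adjusted p = 0.600) and was well above background on 5 of 8 arrays. None of 14 receptor and JAK-STAT genes passed in either fit, with 5 positive and 9 negative differences and a median of -0.11. The 3 with the smallest p were Tyk2 (-0.62), Socs1 (0.30) and Socs3 (-0.30), the last 2 being feedback inhibitors of the kinases. Among 14 genes of nucleic acid sensing upstream of interferon, 2 fell, with 0.727% of all genes called lower, and 3 did with the block, with 2.07% of all genes called lower. Of the 2, 1 was Ikbke, a kinase that phosphorylates Irf3, which fell by 1.03 (adjusted p = 0.0337). Myd88, the adaptor of most Toll-like receptors, differed by -0.81 (adjusted p = 0.150, and 0.0378 with the block). None of 12 measured class I antigen presentation genes passed in either fit, with 7 positive and 5 negative differences and a median of 0.034. The 3 with the smallest p were all negative, H2-K1 at -0.41, H2-T23 at -0.68 and H2-D1 at -0.80.

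Markers of other cell types were set beside these results. For 11 measured epithelial markers, the mean log2 ratio per array lay between -2.71 and -2.57 in Jagged1 MRK-003, -2.77 and -2.46 in vector MRK-003, -2.56 and -2.35 in Jagged1 DMSO, and -2.90 and -2.64 in vector DMSO. All 11 were above background on all 8 arrays, 10 of 11 had a negative difference with MRK-003 in Jagged1 co-cultures (median -0.17), and 11 of 11 a positive one between Jagged1 DMSO and vector DMSO (median 0.26), with none passing. For 14 macrophage markers the means lay between -3.01 and -2.83, -3.01 and -2.68, -2.95 and -2.76, and -3.22 and -2.81 in the same order of groups, with 7 positive and 7 negative differences in Jagged1 co-cultures. For 8 lymphoid and plasmacytoid dendritic cell markers 1 difference was positive and 7 were negative (median -0.21), and for 6 endothelial markers 4 were positive and 2 negative. For 14 osteoblast markers the means lay between 1.02 and 1.32 in Jagged1 MRK-003, 0.88 and 1.41 in vector MRK-003, 0.74 and 1.02 in Jagged1 DMSO, and 1.03 and 1.40 in vector DMSO, so Jagged1 DMSO, lowest in Ifit1, had the lowest range here too, overlapping those of both MRK-003 groups. With MRK-003 in vector co-cultures, 6 of the 14 had positive and 8 negative differences (median -0.26), whereas Ifit1 was higher there. With MRK-003 in Jagged1 co-cultures, 9 of the 14 had positive and 5 negative differences (median 0.19), from -0.82 to 1.96. The largest was that of alkaline phosphatase (Akp2), at 1.96 (limma, adjusted p = 0.0556, and 0.0075 with the block). The part of cell mixture in the differences of the interferon-stimulated genes was not tested.

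The values of the dimmer genes depended on the background correction. With normexp on the raw signals in place of the scanner's processed signals, the median difference in Jagged1 co-cultures was 0.02 and no gene of the 30 passed. Ifit1 then differed by 0.86 (adjusted p = 0.214), Ifit3 by 0.50, Ifi44 by 0.19 and Bst2 by 0.53, whereas Oas2 (-0.06) and Mx2 (-0.09) changed sign. The background mean that normexp fitted to Cy3 was -312 on Jagged1 MRK-003 replicate 2, -83.4 and -260 on the 2 Jagged1 DMSO arrays, and between -14.7 and -3.35 on the other 5. Isg15 (0.43 with normexp, 0.47 without) and Irf1 (-0.36 and -0.40), with mean Cy3 signals of 1365 and 8132, moved little. Tap1 (-0.52 with normexp, -0.88 without) and Stat2 (-0.09 and -0.41), with mean signals of 586 and 628, moved more.

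**Figure D5:**
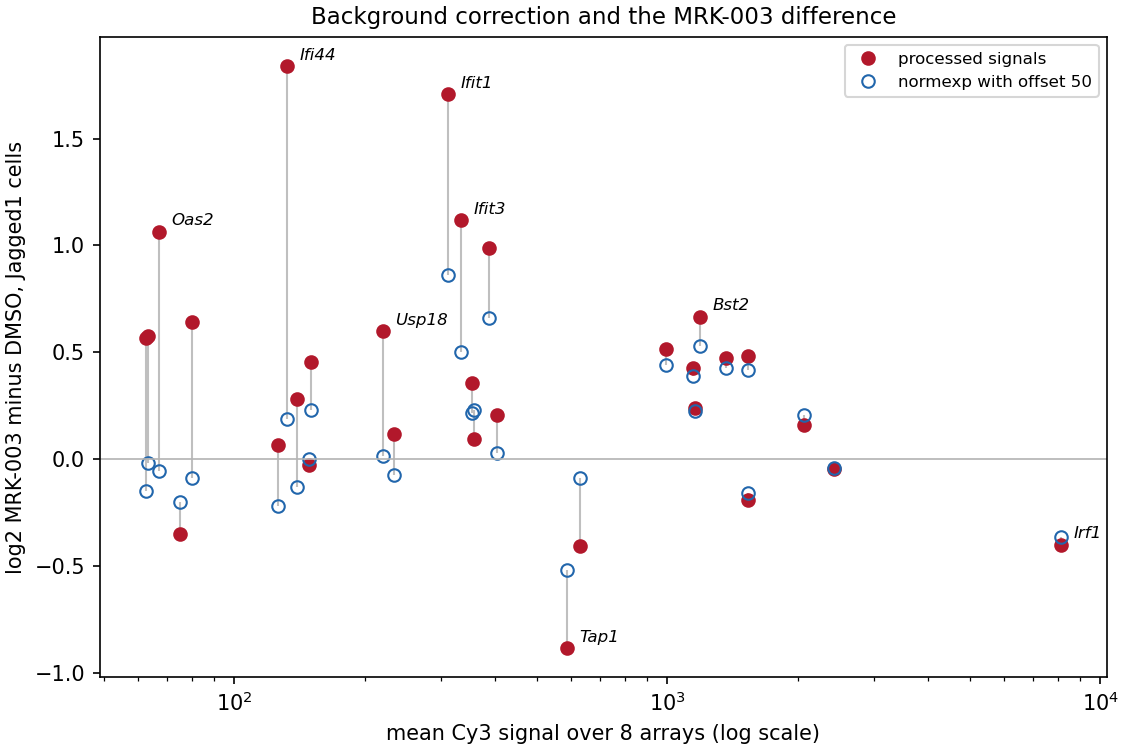
Difference between Jagged1 MRK-003 and Jagged1 DMSO (log2) against the mean Cy3 signal of the probe (log axis) for 30 genes, from the scanner's processed signals and from normexp-corrected signals. Pairs of points lie apart for some genes at low signal, as for Ifi44 (1.84 and 0.19), and also for Tap1 (-0.88 and -0.52). They lie together at high signal, as for Irf1 (-0.40 and -0.36).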

How the data were processed

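The arrays were scanned with Agilent Feature Extraction 9.5.3.1, and the deposited scanner intensity columns were background-subtracted, detrended and dye-normalised, per the file headers. The deposited value table of log2 ratios matched log2 of processed Cy3 over Cy5 within 0.02 after adding a constant per array (column medians 0.11 to 0.21). Here, log2 ratios of the processed signals were loess-normalised in each array (limma 3.58.1, R 4.3.3). Control spots (1639) and outlier marks were left out, and probes whose Cy3 signal did not clear background on both arrays of any group (7811) were dropped. Tests were limma fits of 4 group means over 8 arrays with 4 residual degrees of freedom before moderation, Benjamini-Hochberg adjusted over 22832 genes, threshold 0.05. No dyes were swapped, so dye bias by gene is shared by all groups. Replicate numbers match slides per the file headers, and replicate 1 deviations correlated between groups at 0.27 to 0.72 over 6 pairs, so the block is given where it changes a call. Per-array values are given for genes that passed any comparison and for the 4 smallest p in each, with others added where a role is described. Genes, lists and this rule were chosen with earlier results of these data known. So was the background correction: processed signals were made the main values because an earlier report found that normexp (offset 50) distorted some arrays. Alternatives were normexp (offset 50), no background correction, a floor of 25, quantile scaling, Cy3 alone, other filters and probe rules, and each array left out. A nucleic acid sensing gene is not reported here.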

Additional observations from a re-analysis of the deposited data

How the results depend on the processing

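In Jagged1 co-cultures the number of interferon-stimulated genes passing with MRK-003 (1) was 2 with a signal floor, 3 with the filter on both channels, 3 without background correction, 9 with the replicate block, and 0 without a filter, with normexp or with normexp and the block. Over all genes (275) it was 67 for Cy3 alone, 500 without background correction, 90 without a filter, 71 with normexp, 524 with normexp and the block, and 1016 with the replicate block. For the average effect of MRK-003 the list's count (2) was 1 for Cy3 alone, 5 with both channels, 1 with quantile scaling, 0 without a filter or with normexp, and 8 with the replicate block, and over all genes (241) it was 47, 364 with both channels, 474 without background correction, 82 without a filter, 73 with normexp, 623 with normexp and the block, and 921 with the block. In Jagged1 DMSO against vector DMSO 1 gene of the list passed with the replicate block, and over all genes (16) the count was 4 for Cy3 alone, 42 with the floor, 27 with both channels, 31 with quantile scaling, 9 with the mean of probes, 48 without background correction, 3 without a filter, 4 with normexp, 106 with normexp and the block, and 257 with the block. For the interaction over all genes (0) it was 6 with the floor, 3 with both channels, 1 with quantile scaling, 3 without background correction and 2 with the replicate block. The list's median in DMSO (Jagged1 minus vector) was -0.13 for Cy3 alone and 0.16 with normexp, with or without the block. In MRK-003 it was 0.054 with quantile scaling, -0.035 with the mean of probes and 0.10 with normexp. The median for MRK-003 was 0.26 without background correction and 0.024 with normexp in Jagged1 co-cultures, 0.038 with normexp in vector co-cultures, 0.063 with normexp on average, and -0.070 with normexp for the interaction. Under normexp, with or without the block, signs turned among others for Ifi44 (0.50), Mx2 (0.49), Oas2 (1.01), Usp18 (0.56) and Cxcl10 (0.74) in DMSO, for Ifi44 (-0.094) and Mx2 (-0.11) in the interaction, for Oas2 (-0.057), Mx2 (-0.087) and Cxcl10 (-0.15) in Jagged1 co-cultures, and for Cxcl10 on average (-0.084). Beyond the calls given here and in the results above, the block changed no call among the genes of the list found by symbol.

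Leaving out each array gave 0 to 9 genes for Jagged1 in DMSO, 0 to 0 in MRK-003, 5 to 152 for MRK-003 in Jagged1 co-cultures, 0 to 0 in vector co-cultures, 0 to 0 for the interaction and 4 to 57 for the average. The list's counts were 0 to 0, 0 to 1 and 0 to 0 for Jagged1 in DMSO, MRK-003 in Jagged1 co-cultures and the average. Its medians were -0.23 to 0.017, -0.034 to 0.12, 0.28 to 0.43, 0.17 to 0.28, 0.02 to 0.18 and 0.18 to 0.29 in the same order of comparisons. A group left with 1 array was assumed to vary like the others.

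Precision is limited by 2 arrays a group. The second slide was dimmer, and Oas2, Mx2, Cxcl10, Mx1 and Rsad2 were the 5 dimmest genes of the list.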

Other observations

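A further 41 measured interferon-induced genes, outside the list, had 29 positive and 12 negative differences with MRK-003 in Jagged1 co-cultures (median 0.14). Of these, 1 passed, with 1.20% of all genes called, and 3 passed with the replicate block, all higher, with 2.38% of all genes called higher. Ifi27, a mitochondrial interferon-induced protein, rose by 2.09 ± 0.19 (limma, adjusted p = 0.0112), with 1.96 and 2.22 on the 2 slides. Ifi27 had log2 ratios of -1.88 and -1.50 in Jagged1 MRK-003, -1.74 and -1.42 in vector MRK-003, -3.84 and -3.73 in Jagged1 DMSO, and -2.67 and -2.50 in vector DMSO. All its MRK-003 arrays lay above all its DMSO arrays, and the Jagged1 DMSO arrays were lowest. Iigp1, an immunity-related GTPase, had 0.29 and 1.17 in Jagged1 MRK-003, 0.27 and 1.22 in vector MRK-003, -1.65 and -1.47 in Jagged1 DMSO, and -0.37 and 0.08 in vector DMSO. The 2 Jagged1 DMSO arrays were again the lowest. Its difference with MRK-003 in Jagged1 co-cultures was 2.29 (adjusted p = 0.0569, and 0.0074 with the replicate block). In Jagged1 DMSO against vector DMSO, 10 of the 41 genes had positive and 31 negative differences (median -0.23). None passed without the block, and 2 were lower with it, with 0.591% of all genes called lower. These were Ifi27 at -1.20 (limma, adjusted p = 0.137, and 0.0219 with the block) and Iigp1 at -1.41 (0.0487 with the block). Normexp values were not set out for these 41 genes.

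Of 16 NF-kB targets, 9 had positive and 7 negative differences with MRK-003 in Jagged1 co-cultures. Of the 16, 1 rose, with 0.477% of all genes called higher. With the replicate block 4 rose, with 2.38% of all genes called higher. Vcam1, an adhesion molecule, rose by 1.47 (limma, adjusted p = 0.0356, and 0.0044 with the block). Tnfaip3, an inhibitor of NF-kB signalling, differed by 0.81 (0.1005, and 0.0304 with the block) and Cxcl5 by 2.47 (0.0651, and 0.0468 with the block). The Cxcl5 probe was near background, with a mean Cy3 signal of 59.7, and was well above it on 6 of 8 arrays. Its log2 ratios in Jagged1 DMSO were -8.00 and -6.70. Normexp values were not set out for these 16 genes.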
